A study of Mus musculus with 4 samples.

Results

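The Notch pathway was examined through 10 listed genes in intestinal crypts, the epithelial pits that hold the stem cells of the gut. The list holds the receptors Notch1, Notch2 and Notch3, the ligands Dll1, Dll4 and Jag1, the targets Hes1 and Hes5, the nuclear effector Rbpj and the receptor glycosyltransferase Lfng. They were found by gene symbol after the Ensembl identifiers of the count table were matched to GENCODE M21. All 10 were among the 53845 rows of the table, and 9 of them passed the filter on low counts, which left 17504 genes to test. Hes5 did not pass it.

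RNA was sequenced from crypts of wild-type (WT) C57BL/6 mice and of Vil-CREPTKO mice of the same strain, with 2 libraries per group. In the Vil-CREPTKO mice, Cre recombinase under the villin promoter removes floxed sequence of Rprd1b, the gene for CREPT, from the intestinal epithelium. Cells of the crypt preparation that do not use the villin promoter keep the gene. The mice were not injured, no drug was given, and animals of both sexes aged 6 to 8 weeks were used.

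Notch signalling passes between neighbouring cells. A Delta or Jagged ligand on one cell pulls on a Notch receptor on the next, the receptor is cut by an ADAM protease and then by γ-secretase, and the freed intracellular part enters the nucleus, binds Rbpj and switches on targets such as Hes1. In crypts, secretory cells display Dll1 and Dll4, and Notch activity in their neighbours keeps those cells from entering the secretory lineages, in part because Hes1 represses Atoh1, the factor that starts them. Sugars on the receptor tune the contact. Pofut1 adds the O-fucose that the receptor needs to bind ligand, and the fringe enzymes Lfng, Mfng and Rfng extend it and so shift the preference between Delta and Jagged ligands.

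Promoter sequences are shown for Lfng, which had the lowest p among the members, for Hes5, a classical target that was almost silent here, and for Pofut1, the pathway gene outside the 10 with the lowest p. Each is the stretch before a RefSeq start site on GRCm38.p6, read on the plus strand: chr5:140607091-140607340 for Lfng, chr4:154960673-154960922 for Hes5 and chr2:153241282-153241531 for Pofut1. Capitals mark TGGGAA, the core letters that Rbpj binds, or TTCCCA, the same site on the other strand.
Lfng: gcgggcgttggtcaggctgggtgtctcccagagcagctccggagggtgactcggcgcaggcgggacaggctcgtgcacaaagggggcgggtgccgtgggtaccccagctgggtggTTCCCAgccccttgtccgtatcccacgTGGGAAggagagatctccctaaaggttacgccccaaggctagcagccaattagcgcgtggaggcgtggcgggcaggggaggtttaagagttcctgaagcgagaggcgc
Hes5: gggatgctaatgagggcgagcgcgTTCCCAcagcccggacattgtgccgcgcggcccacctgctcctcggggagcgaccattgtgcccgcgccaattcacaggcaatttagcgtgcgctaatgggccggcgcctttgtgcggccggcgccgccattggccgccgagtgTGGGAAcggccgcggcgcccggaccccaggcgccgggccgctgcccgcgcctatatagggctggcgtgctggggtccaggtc
Pofut1: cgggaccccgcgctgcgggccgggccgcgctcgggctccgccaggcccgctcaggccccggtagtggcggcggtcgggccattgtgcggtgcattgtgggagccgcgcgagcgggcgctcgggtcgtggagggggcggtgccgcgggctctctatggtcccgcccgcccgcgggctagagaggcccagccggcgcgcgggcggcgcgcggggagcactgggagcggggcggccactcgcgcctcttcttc
Lfng held a match on each strand, with first bases at positions -135 and -108 from the start site, and so did Hes5, at -226 and -82. Pofut1 held none. In windows of 250 bases, 7094 of all 32851 RefSeq promoters (21.6%) held the motif on either strand, as did 4 of the 11 promoters listed for 9 members. The matches among the members lay in promoters of Lfng, Hes5 and Rbpj. Hes1 had no promoter entry and was not searched. The longer form GTGGGAA, searched on both strands and overlapping the shorter form by construction, was in 5.42% of all promoters and in 2 of the 11, one of Lfng and one of Hes5. A match is a run of letters and not a measured binding site.

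Library totals ran from 47241049 to 49369315 counts, so that 3 counts, the most that a count of 0 allows, equalled 0.0588 to 0.069 CPM (read counts scaled to the library size with TMM factors). Rprd1b (ENSMUSG00000027651, chr2:158028497-158132297) stood at 60.5 and 61.6 CPM in WT and at 26.3 and 29.0 CPM in Vil-CREPTKO, 45.3% of the WT mean (log2 fold change -1.14, SE 0.12, edgeR adjusted p = 0.0041), which fitted the labels. WT replicate 2 held Xist at 863 CPM and no count of the Y-linked genes, whereas the other 3 libraries held the reverse pattern, so the WT group had a library of each sex. Vil-CREPTKO replicate 1 stood apart with 10.2% of its counts from mitochondrial genes against 6.75% to 7.62% elsewhere, and with the highest fibroblast and red blood cell marker sums. Epithelial markers (Epcam, Cdh1, Vil1 and keratins) summed to between 7760 and 8680 CPM in all 4 libraries. In bulk RNA, fewer cells of a type and less RNA per cell cannot be told apart.

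None of the 9 tested members passed an adjusted p of 0.05 in edgeR's quasi-likelihood test, in which 2.71% of all genes passed. Lfng and Notch3, both lower in Vil-CREPTKO, had an unadjusted p under 0.05, that is 2 of 9 against 14.3% of all genes. DESeq2 gave 806 of 15694 genes an adjusted p under 0.05, and 1 member, Lfng, was among them. The groups did not overlap for 4 of the 9 members, against 45.1% of all genes: Lfng, Notch3 and Dll1 were lower in both Vil-CREPTKO libraries and Dll4 was higher in both. The median log2 fold change of the 9 was -0.12 beside -0.006 for all genes tested. Set against the WT mean one library at a time, the median was -0.27 for Vil-CREPTKO replicate 1 and 0.068 for replicate 2, so its sign differed between the libraries of the group.

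**Figure D1:**
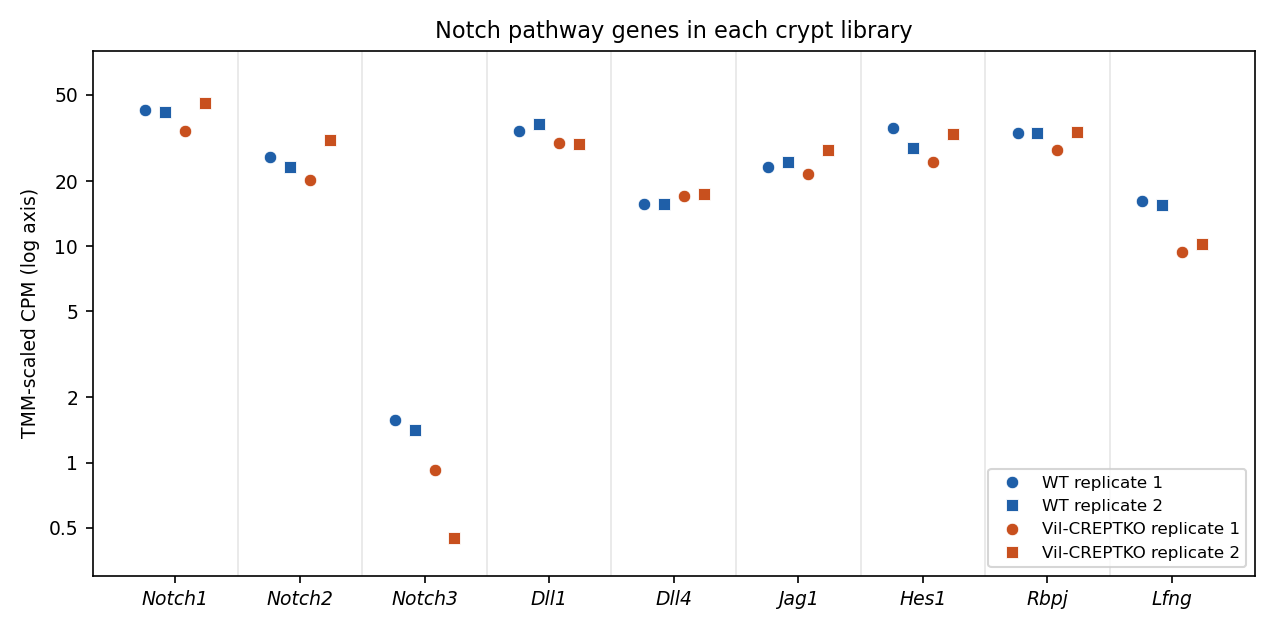
TMM-scaled CPM of the 9 tested members in each library, on a log axis, with WT in blue and Vil-CREPTKO in orange. Lfng, Notch3 and Dll1 lie lower in both Vil-CREPTKO libraries, Dll4 lies higher in both, and the other 5 genes overlap, with Vil-CREPTKO replicate 1 lowest in each of those.

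Compared per kilobase of merged exons, Hes1 was the most abundant member in WT crypts at 15.6 CPM per kb, followed by Dll1 at 8.39 and Lfng at 6.33. Jag1 (4.10 CPM per kb) and Dll4 (4.06) overlapped across the WT libraries and could not be ordered. Notch1 (2.96), Rbpj (2.62) and Notch2 (2.27) came next without overlap in WT. This order, and the place of Rbpj and Notch1 below Jag1 and Dll4, turned on the gene model. With the longest transcript as the length, the WT means were 6.10 for Rbpj and 4.44 for Notch1, against 4.25 for Jag1 and 4.18 for Dll4. Notch3 (0.185) and Hes5 (0.0287) were far below the rest. In Vil-CREPTKO the means kept Hes1 (14.1 CPM per kb) and Dll1 (7.10) on top, while Lfng, at 3.92, stood below Dll4 (4.48) and Jag1 (4.22).

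Among the receptors, Notch1 and Notch2 are the forms that act in the crypt epithelium. Notch1 stood at 42.8 and 41.5 CPM in WT and at 34.2 and 46.0 CPM in Vil-CREPTKO. The Vil-CREPTKO libraries lay on either side of WT, and the log2 fold change was -0.072 (SE 0.16, 95% interval -0.43 to 0.28, adjusted p = 0.896). Notch2 stood at 25.8 and 23.1 CPM in WT and at 20.3 and 30.8 CPM in Vil-CREPTKO, again with WT in between (0.063, SE 0.20, interval -0.39 to 0.52, adjusted p = 0.931). The sign of both differences changed when a single library was left out.

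Notch3, the receptor of smooth muscle and pericytes, was low in these crypts. It had 80 and 70 counts in the WT libraries and 40 and 22 counts in the Vil-CREPTKO libraries, or 1.57, 1.42, 0.92 and 0.448 CPM. Both Vil-CREPTKO libraries were below both WT libraries. The log2 fold change was -1.13 (SE 0.47, interval -2.20 to -0.066), with an unadjusted p of 0.0399 and an adjusted p of 0.314, and it ran from -1.74 without Vil-CREPTKO replicate 1 to -0.69 without Vil-CREPTKO replicate 2. The other 7 smooth muscle and pericyte markers summed to 1.92 and 2.38 CPM in WT and to 1.63 and 2.44 CPM in Vil-CREPTKO, which overlapped. Only 2 of these 7, Pdgfrb and Tagln, passed the filter on low counts. Acta2, Myh11, Des, Cnn1 and Rgs5 had almost no counts, so the sum says little about muscle. Fibroblast markers summed to 5.13 and 5.83 CPM in WT and to 17.6 and 2.04 CPM in Vil-CREPTKO. The part of these cells in the Notch3 values was not tested.

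Notch4, the receptor of endothelium and the only receptor outside the list, stood at 4.47 and 5.16 CPM in WT and at 2.60 and 3.34 CPM in Vil-CREPTKO. Its log2 fold change was -0.69 (SE 0.26, unadjusted p = 0.0275, adjusted p = 0.26), so it did not pass the test. The 9 endothelial markers summed to 4.45 and 4.63 CPM in WT and to 4.92 and 3.85 CPM in Vil-CREPTKO, with Emcn and Cldn5 at 0 in every library. Only 4 of the 9 passed the filter on low counts, and they went both ways. Tek (56.7% of WT) was lower and Egfl7 (196%) higher in both Vil-CREPTKO libraries, while Plvap (69.7%) and Pecam1 (89%) overlapped. The sum therefore says little about endothelium. The part of these cells in the Notch4 values was not tested. Of the per-kilobase signal of all 4 receptors, Notch1 made up 48.9% and 49.6% in WT against 50.9% and 49.3% in Vil-CREPTKO. Notch2 made up 38.9% and 36.5% in WT against 39.9% and 43.6% in Vil-CREPTKO, higher in both by a margin smaller than the gap between the Vil-CREPTKO libraries. The size of these shares turned on the gene model. With the longest transcript as the length, Notch1 averaged 57.8% in WT and 58.8% in Vil-CREPTKO, and Notch2 30.3% and 33.6%.

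Of the ligands, Dll1 and Dll4 are the pair that crypt cells rely on. Dll1 stood at 34.1 and 36.8 CPM in WT and at 30.1 and 29.8 CPM in Vil-CREPTKO, lower in both, at 84.6% of the WT mean. The difference did not pass the test (log2 fold change -0.24, SE 0.12, interval -0.52 to 0.042, adjusted p = 0.435). Dll1 shares 20.5% of its exon bases with A930024N18Rik on the opposite strand, and the strand setting of the counting was not given in the sources used here, so its reads are uncertain to that extent. Dll4 stood at 15.7 and 15.6 CPM in WT and at 17.0 and 17.5 CPM in Vil-CREPTKO, 110% of WT and higher in both (0.14, SE 0.15, interval -0.19 to 0.47, adjusted p = 0.74).

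Dll1 and Dll4 thus differed in opposite directions, neither past the test. Per kilobase, Dll1 made up 66.4% and 68.3% of the Delta pair in WT and 61.7% and 60.9% in Vil-CREPTKO, without overlap. An exact permutation test of 2 libraries against 2 cannot give a two-sided p below 0.333, so the share is given as a description.

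Jag1, the Jagged ligand on the list, stood at 23.1 and 24.6 CPM in WT and at 21.5 and 27.7 CPM in Vil-CREPTKO, with WT in between (log2 fold change 0.044, SE 0.16, interval -0.32 to 0.41, adjusted p = 0.941). Jag2, its close relative outside the list, stood at 3.62 and 2.95 CPM in WT and at 7.18 and 6.60 CPM in Vil-CREPTKO. Both Vil-CREPTKO libraries were higher, at 210% of the WT mean. The log2 fold change of Jag2 was 1.07 (SE 0.23, interval 0.54 to 1.60, unadjusted p = 0.00149), and its adjusted p of 0.053 just missed the threshold. It passed in DESeq2 (0.00595), without the filter on low counts (0.00296), with the GC and length correction (0.0385), with the replicate number as a block (0.0398) and without WT replicate 1 (0.0404), and reached 0.16 when WT replicate 2 was dropped and 0.129 when Vil-CREPTKO replicate 1 was dropped. Jag2 made up 11.6% and 9.11% of the per-kilobase Jagged signal in WT and 21.8% and 16.6% in Vil-CREPTKO.

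Lfng, the fringe enzyme on the list, was the member with the lowest p. Lfng (ENSMUSG00000029570, chr5:140607320-140615545, plus strand) had 827 and 764 counts in the WT libraries and 408 and 503 counts in the Vil-CREPTKO libraries. This gave 16.2 and 15.5 CPM in WT and 9.39 and 10.2 CPM in Vil-CREPTKO. The groups were well apart, with Vil-CREPTKO at 61.9% of the WT mean. The log2 fold change was -0.69 (SE 0.16, interval -1.06 to -0.33) with an unadjusted p of 0.00222 and an adjusted p of 0.0666 in edgeR, 0.0311 in DESeq2 and 0.0158 without the filter on low counts. With the GC and length correction it was -0.56, with an adjusted p of 0.135. With each library left out in turn it stayed between -0.75 and -0.63, with adjusted p between 0.0745 and 0.167. Without WT replicate 2, so that only male libraries were compared, it was -0.72. The exons of Lfng overlap no other annotated gene.

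Of the 5 other genes that glycosylate Notch receptors, Pofut1 alone passed the test. Pofut1 (ENSMUSG00000046020, chr2:153241533-153270247, plus strand), which adds the O-fucose that Lfng extends, fell from 43.0 and 41.8 CPM in WT to 19.0 and 21.7 CPM in Vil-CREPTKO. Both Vil-CREPTKO libraries were near 48.1% of the WT mean, with a log2 fold change of -1.05 (SE 0.13, interval -1.36 to -0.75, adjusted p = 0.00629). Its adjusted p was under 0.05 under every alternative run, and its log2 fold change lay between -1.15 and -0.97 with each library left out in turn.

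Pofut1 lies on the chromosome of the deleted gene, with 4.76 Mb between Pofut1 and Rprd1b. Of the 82 genes tested between them, 0 had an adjusted p under 0.05 in edgeR, 9 had an unadjusted p under 0.05 and 2 had an adjusted p under 0.05 in DESeq2. Among all genes, 2.71% had an adjusted and 14.3% an unadjusted p under 0.05 in edgeR. In DESeq2, 806 of 15694 genes had an adjusted p under 0.05. The median log2 fold change of the interval was -0.014. The part of this location in the Pofut1 values was not tested.

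Rfng, another fringe, stood at 27.4 and 26.6 CPM in WT and at 19.2 and 16.8 CPM in Vil-CREPTKO, 66.8% of WT without overlap (log2 fold change -0.58, SE 0.14, unadjusted p = 0.00317, adjusted p = 0.0803). It passed only when the filter on low counts was dropped (0.0206). Poglut1, which adds O-glucose, stood at 15.1 and 12.8 CPM in WT and at 10.6 and 13.1 CPM in Vil-CREPTKO, which overlapped. Mfng, at 2.86 and 1.99 against 2.58 and 2.02 CPM, and Eogt, at 15.9 and 15.5 against 15.5 and 16.3 CPM, overlapped too.

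The 5 glycosylation genes other than Lfng summed to 104 and 98.6 CPM in WT and to 66.9 and 70.0 CPM in Vil-CREPTKO, 67.5% of WT. Pofut1 carried most of that difference. Within the fringe family the balance was not separable by group: per kilobase, Lfng made up 35.0% and 35.2% of the 3 fringes in WT and 30.3% and 35.4% in Vil-CREPTKO.

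**Figure D2:**
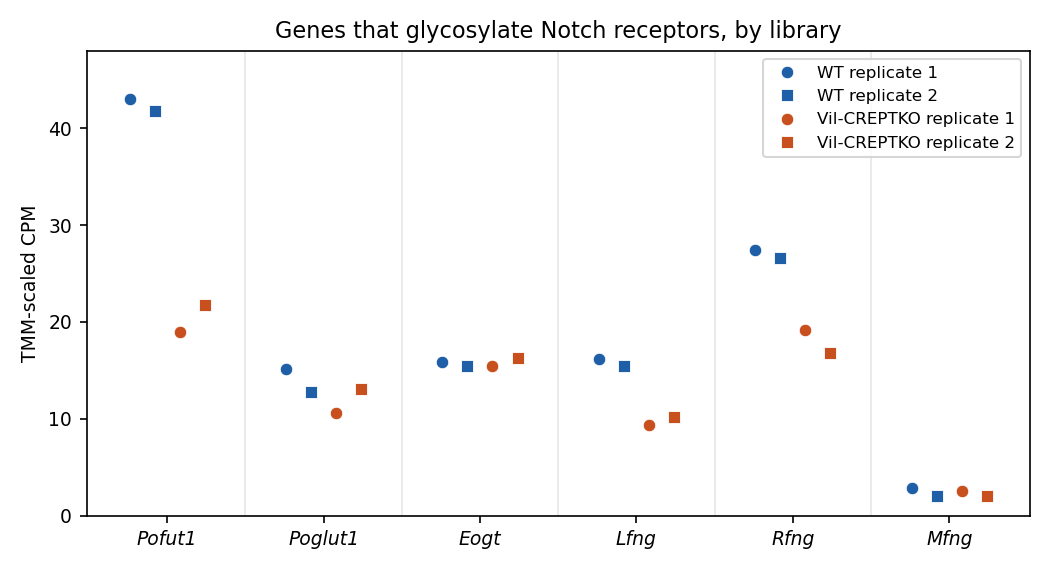
TMM-scaled CPM of the genes that add sugars to Notch receptors, in each library, on a linear axis from 0. Pofut1, Lfng and Rfng are lower in both Vil-CREPTKO libraries without overlap, while Poglut1, Eogt and Mfng overlap; only Pofut1 had an adjusted p under 0.05.

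Rbpj, the DNA-binding partner of the cleaved receptor, stood at 33.4 and 33.5 CPM in WT and at 27.7 and 33.7 CPM in Vil-CREPTKO. Replicate 1 alone lay below WT, and the log2 fold change was -0.12 (SE 0.14, interval -0.44 to 0.19, adjusted p = 0.762).

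Hes1, the main Notch target of the crypt, stood at 35.0 and 28.3 CPM in WT and at 24.6 and 33.0 CPM in Vil-CREPTKO. The groups overlapped, and the WT libraries differed between themselves by more than the group means did. The log2 fold change was -0.14 (SE 0.18, interval -0.54 to 0.27, adjusted p = 0.802), and it turned to 0.057 without Vil-CREPTKO replicate 1. Atoh1, which Hes1 represses, stood at 33.5 and 31.2 CPM in WT and at 30.4 and 32.2 CPM in Vil-CREPTKO. Per kilobase, Hes1 made up 52.2% and 48.6% of the sum of Hes1 and Atoh1 in WT and 45.7% and 51.7% in Vil-CREPTKO, so that their balance overlapped as well.

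Hes5, a target best known from the nervous system, had 4 and 0 counts in the WT libraries and 6 and 9 counts in the Vil-CREPTKO libraries, at most 0.183 CPM. It was too low to test. In addition, 31.8% of its exon bases are shared with Gm20421 on the opposite strand.

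The members were set beside 74 further genes of the pathway, of which 67 were tested. In that list 3 genes passed an adjusted p of 0.05, Pofut1, Hdac2 and Aph1a, all lower in Vil-CREPTKO, and 0 passed as higher. That is 3 of 67 against 2.29% of all genes called lower. DESeq2, in which 806 of 15694 genes passed, called 4 of the list, of which 3 were lower, with Jag2 as the addition. An unadjusted p under 0.05 was reached by 7 genes that were lower and 1 that was higher, a share below the 14.3% of all genes. The groups did not overlap for 27 of 67, also below the 45.1% of all genes. The median log2 fold change was -0.06, with 42 negative and 25 positive values. With the further threshold of an absolute log2 fold change over 1, Pofut1 was the 1 gene called, against 1.64% of all genes.

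**Figure D3:**
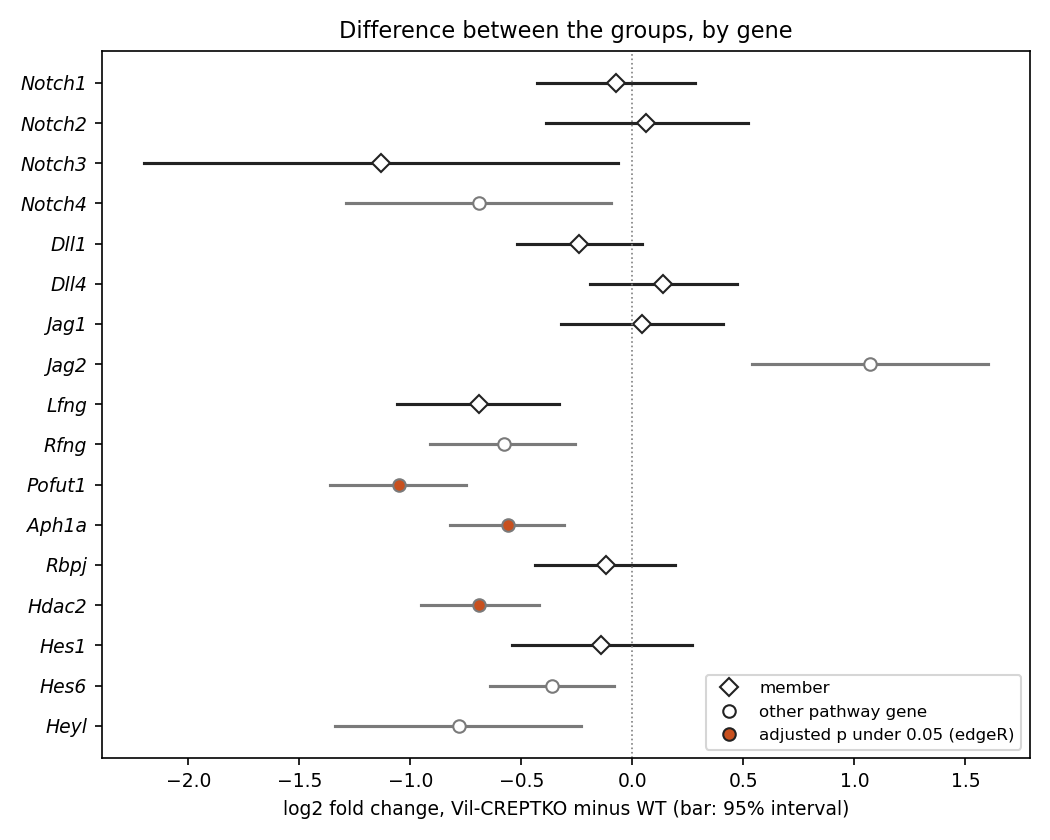
Log2 fold change (Vil-CREPTKO minus WT) with its 95% interval for the 9 tested members (diamonds), and for genes of the wider list (circles) with an unadjusted p under 0.05. Filled symbols, adjusted p under 0.05, are Pofut1, Aph1a and Hdac2; every member is open, and Jag2 is the only gene plotted whose interval lies wholly above 0.

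γ-Secretase makes the cut that frees the intracellular part of the receptor. Aph1a, one of its subunits, fell from 95.5 and 95 CPM in WT to 66.6 and 62.3 CPM in Vil-CREPTKO, 67.6% of WT (log2 fold change -0.56, SE 0.11, adjusted p = 0.0386). This call was close to the threshold: the adjusted p was 0.0513 with RLE scaling, 0.0566 with upper-quartile scaling, 0.0548 with the replicate block and 0.0747 with the GC and length correction. It reached 0.117 when WT replicate 1 was dropped, 0.133 when WT replicate 2 was dropped, and 0.0795 when Vil-CREPTKO replicate 2 was dropped. Aph1a shares 12.9% of its exon bases with Car14 on the opposite strand.

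Other subunits named here did not pass the test. Ncstn, a core subunit, stood at 116 and 122 CPM in WT and at 131 and 131 CPM in Vil-CREPTKO, and Psenen at 75.1 and 80.1 against 69.0 and 59.2 CPM (log2 fold change -0.28, unadjusted p = 0.0544). Aph1b, the paralogue of Aph1a, stood at 1.96 and 2.68 CPM against 1.5 and 1.63 CPM. Ncstn was thus higher, and Psenen and both Aph1 genes lower, in both Vil-CREPTKO libraries. The 9 cleavage genes tested, proteases included, had a median log2 fold change of -0.015.

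Hdac2, a histone deacetylase that serves many corepressor complexes, among them the one Rbpj joins when no Notch signal is present, fell from 60.8 and 60.4 CPM in WT to 36.8 and 38.5 CPM in Vil-CREPTKO. It stood at 62.1% of WT (log2 fold change -0.69, SE 0.12, adjusted p = 0.0202), and its adjusted p was 0.0502 without WT replicate 2. The 14 corepressor genes tested, Hdac2 included, divided evenly, with 7 negative and 7 positive values and a median of 0.04. For the 8 coactivators, the Mastermind-like genes and acetyltransferases among them, the median was 0.049 and none had an unadjusted p under 0.05.

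Further targets and Hes family genes outside the list gave 8 tested genes. Of these, Heyl and Hes6 had an unadjusted p under 0.05, against 14.3% of all genes. Whether Notch induces Hes6 in these crypts was not tested. Heyl stood at 5.62 and 5.79 CPM in WT and at 3.70 and 2.93 CPM in Vil-CREPTKO, a difference of -0.78 on the log2 scale (SE 0.24, adjusted p = 0.163). Hes6, which opposes Hes1, stood at 51.1 and 46.2 CPM against 37.2 and 38.7 CPM (-0.36, SE 0.12, adjusted p = 0.203). Both were lower in both Vil-CREPTKO libraries and neither passed the test.

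Nrarp, a feedback inhibitor that Notch induces, stood at 4.35 and 5.63 CPM in WT and at 3.8 and 3.79 CPM in Vil-CREPTKO, with 79.4% of its exon bases shared with Gm38287 on the opposite strand. Hey1 had 1 count in a single WT library and Hey2 none in any library. The secretory factors repressed through Hes1 were all on the negative side, at a median of -0.12 over 4 genes. Neurog3, the factor of enteroendocrine precursors, lay farthest from 0 among them, at 4.49 and 4.41 against 3.06 and 3.32 CPM (log2 fold change -0.48, SE 0.25, unadjusted p = 0.0841). It shares 16.3% of its exon bases with Fam241b on the opposite strand. None of the 4 passed the test, at an unadjusted p either.

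**Figure D4:**
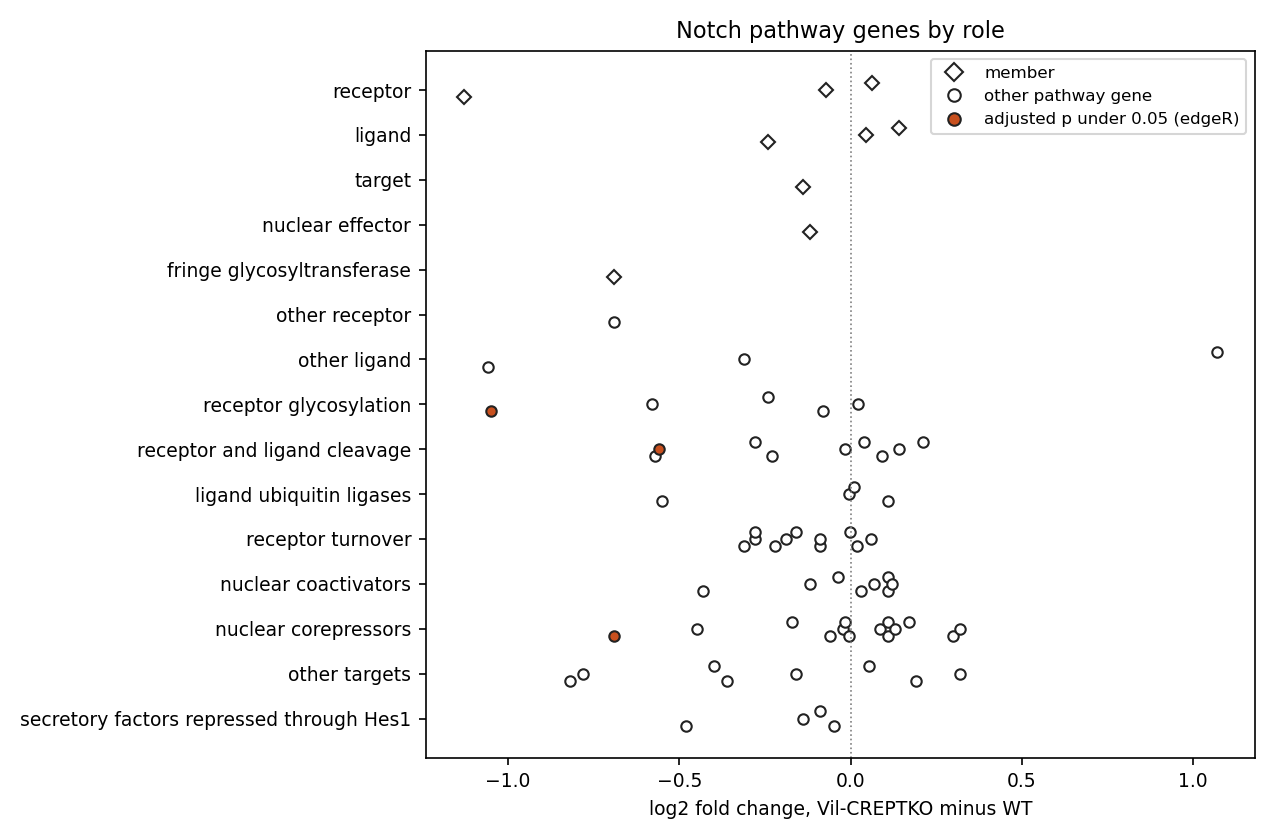
Log2 fold change (Vil-CREPTKO minus WT) of every tested pathway gene, arranged by role, with the 10-gene list as diamonds, the wider list as circles and adjusted p under 0.05 filled. Most roles spread to both sides of 0, the filled points are Pofut1, Aph1a and Hdac2, and Jag2 lies farthest to the right.

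The cells that send and receive Notch signals were followed by their own markers. Stem cell markers (Lgr5, Ascl2, Smoc2, Axin2 and Rgmb) summed to 263 and 248 CPM in WT and to 186 and 259 CPM in Vil-CREPTKO. Like Notch1, Hes1 and Rbpj, this sum was lowest in Vil-CREPTKO replicate 1. By gene, Lgr5 (76.9% of WT) and Smoc2 (79.7%) were lower in both Vil-CREPTKO libraries without passing the test. Ascl2, Axin2 and Rgmb overlapped between the groups. The members themselves summed to 228 and 220 CPM in WT and to 186 and 229 CPM in Vil-CREPTKO. Paneth cell markers summed to 12400 and 17200 CPM in WT and to 15600 and 17200 CPM in Vil-CREPTKO, with Defa24 the most abundant. By mean they went both ways. Ang4 (65.1% of WT) and Defa17 (70.1%) were lower, and Itln1 was at 100%. Lyz1 (116%), Defa24 (123%) and Mmp7 (129%) were higher. Goblet cell markers summed to 7760 and 8420 CPM in WT and to 6730 and 6670 CPM in Vil-CREPTKO. The goblet sum was thus at 82.9% of WT without overlap, but this rested mainly on Clca1 (63.1% of WT, adjusted p = 0.231) and Fcgbp (84.1%), while Muc2 (106%), Zg16 (108%) and Agr2 (99.3%) were close to WT. The median log2 fold change of the 6 goblet markers was -0.085. Immune cell markers summed to 215 and 148 CPM in WT and to 157 and 123 CPM in Vil-CREPTKO, which overlapped, with 4 genes negative and 3 positive. The part of any of these cells in the Dll1 and Lfng values was not tested.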

How the data were processed

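RNA was extracted with Trizol from crypts released with EDTA. The authors deposited whole-number read counts per gene, 1 column per library. Their methods name Bowtie2, RSEM and GRCm38.p6, and the submitters' processing notes add CASAVA 1.8; the annotation and the step to whole numbers were not given in the sources used here. The members and lists were chosen with earlier results of these data known.

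Symbols, positions and lengths came from GENCODE M21, which matched 53360 of 53845 rows (99.1%). Another 380 rows were unnamed loci holding at most 0.247% of a library's counts. Promoters came from RefSeq (GRCm38.p6), with entries for 9 of the 10 members and 57 of the 74 further genes.

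Counts were tested in R 4.3.3 with edgeR 4.0.16 (filterByExpr, TMM, glmQLFit and glmQLFTest, two-sided, the group as the only term), with Benjamini-Hochberg adjustment over all 17504 genes and a threshold of 0.05. The standard error is the log2 fold change divided by the root of F. CPM are TMM-scaled. The common biological coefficient of variation was 0.188. The study's legends give 2 mice per genotype, so the p-values rest on the spread between mice. With so few mice, glmQLFit estimates the spread of each gene in part from the other genes. Replicates of a group differed by a chi-square of 49.8 (WT) and 70.1 (Vil-CREPTKO) per gene, so none was a repeat of another. The pipeline was tested on simulated data.

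Genes were named by rule: the members, genes of the wider list with an adjusted or unadjusted p under 0.05, Rprd1b, and markers moving with a result. Ncstn, Psenen, Aph1b, Nrarp, Neurog3, Poglut1, Mfng, Eogt, Atoh1, Hey1 and Hey2, and the interval between Pofut1 and Rprd1b, were chosen after their values were seen. Values of some genes of the wider list are left out. Alternatives were DESeq2 1.42.0, RLE, library-size and upper-quartile scaling, no filter, at least 10 counts in every library, a replicate block, a GC and length correction (loess, span 0.5), the longest transcript as the length, GTGGGAA as the motif, and each library left out in turn.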

Additional observations from a re-analysis of the deposited data

How the results depend on the processing

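The count of members with an adjusted p under 0.05 rose from 0 to 1 (Lfng) with DESeq2 and without the filter on low counts, and was 0 under the other alternatives. The wider list gave 3 genes, 5 without the filter, and 1 to 3 with each library left out, the 1 being Pofut1 without WT replicate 2. Over all genes, 474 had an adjusted p under 0.05, 806 in DESeq2 and 1233 without the filter, and 435 to 677 with each library left out. With the fold threshold added, 287 were called, 447 with library-size scaling, 613 without the filter and 312 to 429 with each library left out.

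Replicate numbers did not pair the libraries (the correlation of same-numbered deviations was 0.0277). The replicate block gave 558 genes with an adjusted p under 0.05, 336 of them past the fold threshold, 0 members and 3 genes of the wider list. Of the genes named, it took the call from Aph1a (0.0548) and gave one to Jag2 (0.0398).

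Reversals came from 5 members that were near 0 and not called. The log2 fold change of Notch1 was 0.048 with the GC and length correction and -0.30 to 0.12 with each library left out. Notch2 was at -0.018 and Jag1 at -0.039 with library-size scaling, which moved the median of all genes to -0.098. With each library left out, Notch2 ran from -0.26 to 0.33, Jag1 from -0.14 to 0.21, Hes1 from -0.36 to 0.057 and Rbpj from -0.27 to 0.0076. Among the members, Dll1, Dll4, Notch3 and Lfng kept their sign under every alternative. The cause of these shifts was not tested. With a library left out, the lone library of its group is assumed to vary like the other group. Depth limited Hes5 and, at 22 to 80 counts, Notch3.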
